A study of Homo sapiens with 12 samples.

Results

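The genes described here are 48 interferon-stimulated genes, taken by symbol from the table of reads per gene, among 52859 genes in all. Their levels were followed in MDA-MB-231, a widely used cell line from a triple-negative human breast carcinoma, after transfection of a locked nucleic acid (LNA), a short stabilised oligonucleotide that pairs with a complementary RNA. The groups were the mtAsn-2 LNA and the mtAsn-1 LNA, both directed at the mitochondrial asparagine tRNA, the mtLys LNA, directed at the mitochondrial lysine tRNA, and a control LNA, with 3 libraries each. All 4 groups, control included, received 20 nM of an LNA by Lipofectamine 2000 in the same serum-containing medium and were collected on day 2, and no untransfected library was analysed here. Whether the libraries of a group are separate cultures is not in the labels, and each p-value therefore reflects library-to-library spread that could be technical. The labels do not give the LNA sequences, and a single cell line was used.

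Interferons are secreted antiviral proteins. When type I or type III interferon binds its receptor, JAK kinases are activated, and a complex that holds STAT2 and IRF9 binds the interferon-stimulated response element (ISRE) in the promoters of target genes. Type II interferon acts through the gamma-activated site (GAS), a route on which IRF1 is a classical target. The products of these genes sense or cut foreign RNA, block viral entry, attach the ubiquitin-like protein ISG15 to other proteins, and feed back on the pathway. Mitochondrial double-stranded RNA and DNA that reach the cytosol are known ligands of the sensors IFIH1 (MDA5), DDX58 (RIG-I) and cGAS.

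Library totals lay between 17978825 and 37708993 reads, and libraries of a group correlated at 0.9925 to 0.9963 in log2 CPM across genes. CPM here means counts scaled to the library total times its TMM factor, the usual per-library normalisation. The defining markers of the line (VIM, CD44, EGFR, AXL, MSN and CAV1) summed to 5980 to 6220 CPM with mtAsn-2, 7010 to 7460 with mtAsn-1, 7080 to 7230 with mtLys and 6540 to 6930 with control. ESR1 had at most 6 reads and PGR at most 1 read in a library, while ERBB2 lay near 90.4 CPM in control. Of 12 leukocyte markers, LAPTM5 and CD68 carried nearly all reads, and the list summed to 222 to 229 CPM with mtAsn-2, 289 to 317 with mtAsn-1, 301 to 327 with mtLys and 216 to 222 with control. The defining leukocyte gene PTPRC had at most 10 reads in a library, CD3E had at most 1, and MS4A1 had 0. Fibroblast markers summed to at most 0.372 CPM, and endothelial markers, mainly PECAM1, summed to 10.1 to 11.6 CPM with mtAsn-2, 15 to 18.1 with mtAsn-1, 16.5 to 18.5 with mtLys and 10.9 to 13.1 with control. The part of these markers in the results below was not tested. In bulk RNA, fewer cells that express a gene and less RNA per cell cannot be told apart.

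Promoter windows from RefSeq (GRCh38.p14, 250 bases before to 50 after a transcription start) were matched for 39 of the 48 genes. The ISRE core searched was GAAA repeated 2 bases apart, on either strand, and it was present in 26 of them (66.7%), against 4.38% of 27305 genes with a window. The GAS core TTCNNNGAA was present in 11 (28.2%), against 9.38% of all genes. The NF-kB motif, GGGAA and CC with any 3 bases between, was present in 2 (5.13%, OAS3 and BST2), against 8.28% of all genes. The windows of OAS2, TRIM22, IRF7, DHX58, IFIT2, MX2, OASL, IFITM2 and USP18 were not matched. A match is a description of these letters, not of binding, and neighbouring matches can overlap, as in ISG15 and IFIH1.

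The stretches below are shown because their genes carry the main contrasts of the results. They are written 5′ to 3′ on the strand of the gene, with ISRE cores in capitals (read as TTTC repeated where the core lies on the other strand).
ISG15 (chr1:1013364-1013419, plus strand): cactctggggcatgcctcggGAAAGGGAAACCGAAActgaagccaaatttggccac
OAS3 (chr12:112938311-112938473, plus strand): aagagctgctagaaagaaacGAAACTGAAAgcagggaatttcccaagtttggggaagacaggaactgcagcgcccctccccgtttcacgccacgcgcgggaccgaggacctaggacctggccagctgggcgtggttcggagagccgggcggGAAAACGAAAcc
ISG20 (chr15:88638927-88638976, plus strand): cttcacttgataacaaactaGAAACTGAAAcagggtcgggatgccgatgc
IFI6 (chr1:27672256-27672368, minus strand): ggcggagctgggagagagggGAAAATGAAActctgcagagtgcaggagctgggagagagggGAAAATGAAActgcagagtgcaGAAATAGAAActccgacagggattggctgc
PARP9 (chr3:122564322-122564351, minus strand): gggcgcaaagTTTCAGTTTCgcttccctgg
IFITM1 (chr11:313980-314029, plus strand): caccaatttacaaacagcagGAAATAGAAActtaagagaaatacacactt
IFIH1 (chr2:162318685-162318863, minus strand): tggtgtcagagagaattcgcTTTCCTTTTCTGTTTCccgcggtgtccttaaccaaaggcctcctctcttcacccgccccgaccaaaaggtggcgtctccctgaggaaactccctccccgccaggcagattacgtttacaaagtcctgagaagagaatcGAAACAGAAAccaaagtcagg
RSAD2 (chr2:6877612-6877661, plus strand): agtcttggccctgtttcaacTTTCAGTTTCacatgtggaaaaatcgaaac
For IRF1, the capitals mark the GAS core.
IRF1 (chr5:132490869-132490917, minus strand): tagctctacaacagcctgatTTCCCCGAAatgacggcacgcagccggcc
The OAS3 stretch also holds the NF-kB motif, GGGAATTTCC, between its ISRE cores. IFI6 held 3 ISRE cores, 2 of them with the same letters, GAAAATGAAA.

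**Figure D1:**
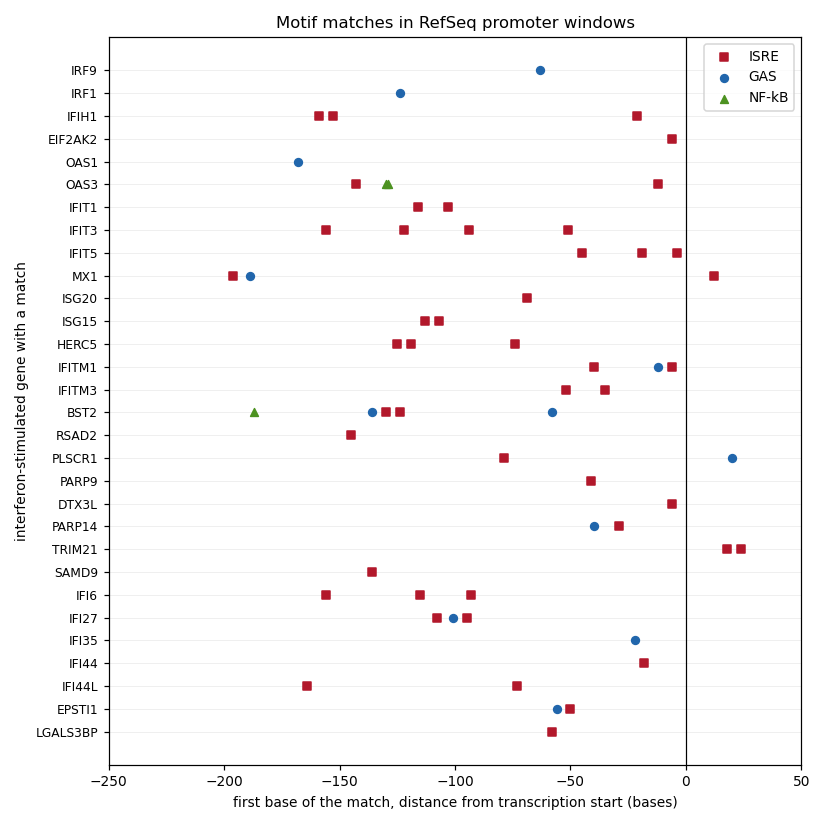
Position of each motif match in the RefSeq promoter windows of the interferon-stimulated genes, as the distance in bases of its first base from the transcription start (vertical line), with 1 row per gene that held a match. ISRE cores (squares) were present in 26 genes, GAS cores (circles) in 11 and NF-kB motifs (triangles) in 2.

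Of the 48 genes, 45 had enough reads to be tested, among 16051 genes tested in all. IRF9 and IFI27 were listed at 0 reads in every library. Each also has a second entry on an alternate locus, likewise at 0, and how multiply mapping reads were counted is not stated, so these zeros are not read as absence of the RNA. CMPK2, a mitochondrial nucleotide kinase gene, had at most 6 reads in a library and 24 in all. IRF7, the factor that amplifies interferon production, had 4 to 20 reads in a library at its main entry and 28 to 87 at its entry on an alternate locus, so its level is uncertain. Scaled per kilobase of exon, the mean level in control was highest for the viral entry blocker IFITM3 (676 CPM per kb), the secreted glycoprotein gene LGALS3BP (387) and ISG15 (276). The lowest mean levels per kilobase among the tested genes in control were those of RSAD2 (0.0496), IRF7 at its main entry (0.28) and the dynamin-like GTPase gene MX2 (0.406).

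With mtAsn-2, 20 of the 45 tested genes were higher and 10 lower than with control (edgeR quasi-likelihood test, Benjamini-Hochberg adjusted p under 0.05 over all genes tested). Among all genes, 24.1% were higher and 27.0% lower in that comparison. With mtAsn-1, 8 were higher and 21 lower than with control, against 24.3% and 24.2% of all genes. With mtLys, 10 were higher and 16 lower, against 24.6% and 23.9% of all genes. These 3 comparisons share the control libraries. As shares of the tested genes, the higher and lower calls were 44.4% and 22.2% with mtAsn-2, 17.8% and 46.7% with mtAsn-1, and 22.2% and 35.6% with mtLys. The median log2 fold change was 0.11 with mtAsn-2, -0.18 with mtAsn-1 and -0.01 with mtLys, beside medians of all genes between -0.01 and 0.

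The comparison with the most genes called higher was that between the LNAs directed at the same tRNA. With mtAsn-2, 31 of the 45 genes were higher than with mtAsn-1 (21.9% of all genes) and 7 lower (24.6%), with a median log2 fold change of 0.26. The libraries of these groups did not overlap, with mtAsn-2 higher, for 29 of the 45 genes, against 25.3% of all genes. Against mtLys, mtAsn-2 had 22 genes higher (22.9% of all genes) and 9 lower (25.7%), with a median of 0.17. Between mtAsn-1 and mtLys, 0 genes were higher (2.12% of all genes) and 13 lower (3.14%) by edgeR, with a median of -0.13. At an unadjusted p under 0.05 these counts were 0 and 19, and by DESeq2 0 and 14. The 13 lower genes became 6 without mtAsn-1 replicate 1, without mtAsn-1 replicate 2 or without mtLys replicate 3, where 1.98%, 2.16% and 1.66% of all genes were lower. The mtAsn-2 group had the highest mean of the 4 groups for 25 of the 45 genes (55.6%, against 29.1% of all genes). The mtAsn-1 group had the lowest mean for 24 (53.3%, against 21.6% of all genes).

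**Figure D2:**
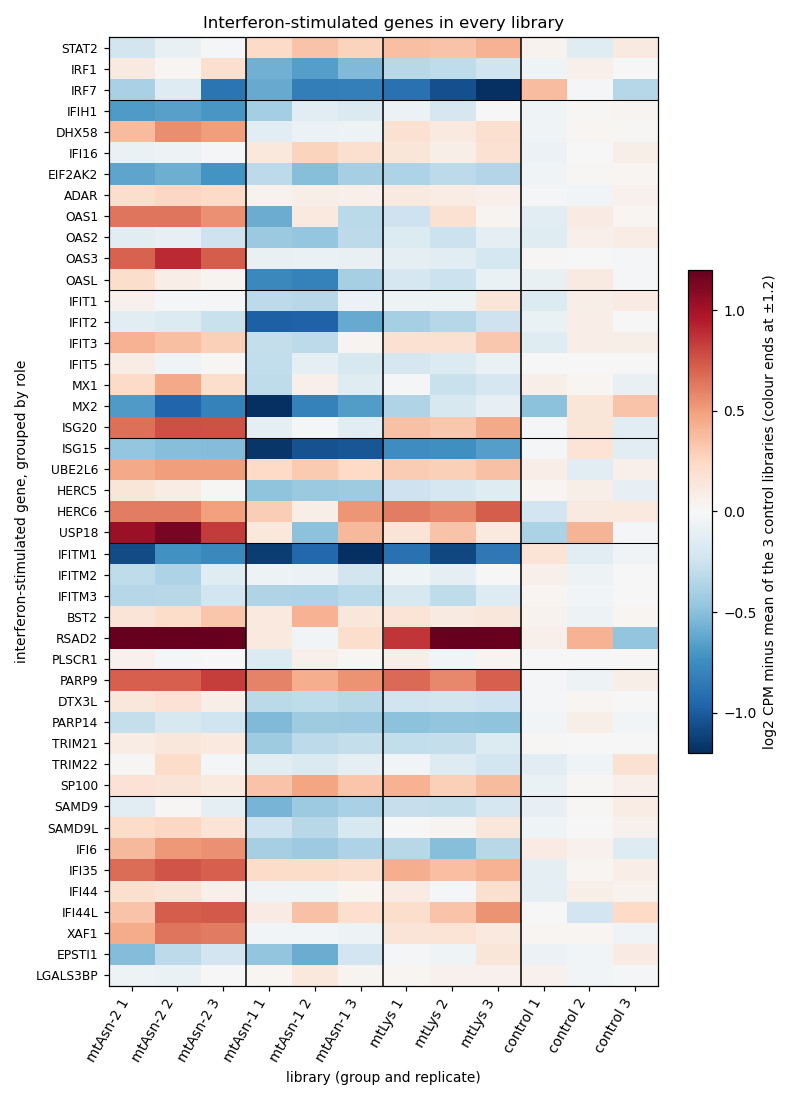
Log2 CPM of the 45 tested interferon-stimulated genes (rows, grouped by role) in each of the 12 libraries (columns), minus the mean of the 3 control libraries. The mtAsn-2 columns are mostly red and the mtAsn-1 columns mostly blue, and ISG15 and IFITM1 are blue in every library of the 3 tRNA LNAs.

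**Figure D3:**
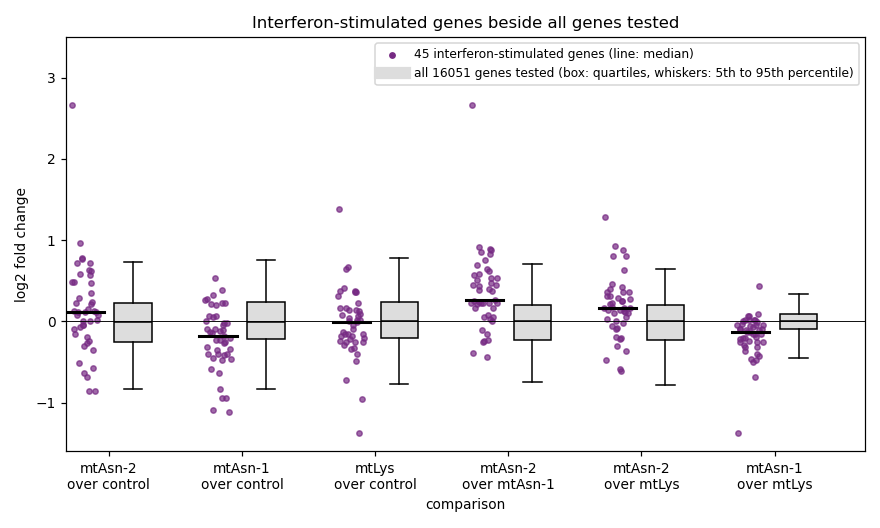
Log2 fold change (vertical axis) of the 45 tested interferon-stimulated genes (points, with their median as a line) beside all 16051 genes tested (box of quartiles, whiskers at the 5th and 95th percentiles) in the 6 comparisons. The median of the interferon-stimulated genes was 0.26 for mtAsn-2 over mtAsn-1 and -0.18 for mtAsn-1 over control.

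Of the 3 tested transcription factor genes, 1 rose and 2 fell with mtAsn-1 and with mtLys against control, while 0 passed with mtAsn-2 by edgeR (1 at an unadjusted p under 0.05, 0 by DESeq2). The shares of all genes called against control, given above, apply to this and the other groups by role below. IRF1 separated the LNAs. Its product turns on antigen presentation and antiviral genes. IRF1 was at 86.4, 81.7 and 91.6 CPM in the mtAsn-2 libraries, 53.8, 50.9 and 55.8 CPM with mtAsn-1, 64, 64.9 and 68.1 CPM with mtLys and 77.3, 83.9 and 80 CPM with control. The mtAsn-1 libraries were the lowest and did not overlap any other group, and the mtAsn-2 and control libraries overlapped. IRF1 fell with mtAsn-1 (log2 fold change -0.59 ± 0.052, SE, adjusted p = 3.1e-10) and with mtLys (-0.29 ± 0.050, adjusted p = 1.62e-05), each against control, and missed the threshold with mtAsn-2 (0.11 ± 0.049, adjusted p = 0.0747). It was higher with mtAsn-2 than with mtAsn-1 (0.69 ± 0.051, adjusted p = 6.23e-12). Without control replicate 2 or mtAsn-2 replicate 2, IRF1 passed as higher with mtAsn-2 than with control (adjusted p = 0.0388 and 0.0209). The same held with no filter (adjusted p = 0.0254) and in the compared groups alone (0.0473). STAT2, a part of the ISRE-binding complex, ran in the other direction. STAT2 was at 76.5, 83.6 and 88.1 CPM in the mtAsn-2 libraries, 104, 113 and 107 CPM with mtAsn-1, 115, 113 and 119 CPM with mtLys and 91.3, 80.1 and 95.9 CPM with control. The mtAsn-1 and mtLys libraries lay above all control libraries. STAT2 rose with mtAsn-1 (0.28 ± 0.058, adjusted p = 0.00028) and with mtLys (0.38 ± 0.057, adjusted p = 5.75e-06). It was lower with mtAsn-2 than with mtAsn-1 (-0.39 ± 0.057, adjusted p = 5.26e-06) and than with mtLys (-0.48 ± 0.056, adjusted p = 1.21e-07). IRF7 at its main entry had fitted log2 fold changes of -1.38 ± 0.36 with mtLys and -0.94 ± 0.37 with mtAsn-1 against control. Its alternate-locus entry did not pass with mtLys (-0.29 ± 0.20, adjusted p = 0.229). The main entry had 4 to 10 reads with mtLys. It passed the filter on low counts only through control and mtAsn-2 libraries, where it was highest. No p-value is therefore given for the main entry, though its calls are included in the counts of genes called. The call with mtAsn-1 was lost by DESeq2, with no filter and with a replicate block. It was also lost without any 1 of mtAsn-1 replicates 1, 2 and 3 or control replicates 1 and 2.

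Among the 9 sensors and enzymes that act on double-stranded RNA or DNA, 4 rose and 3 fell with mtAsn-2, 1 rose and 4 fell with mtAsn-1, and 1 rose and 3 fell with mtLys, each against control. The 2′-5′-oligoadenylate synthetases, which activate RNase L on double-stranded RNA, did not move as a unit. OAS3 was at 76.1, 86.3 and 77.2 CPM in the mtAsn-2 libraries, 43.6, 44.1 and 43.8 CPM with mtAsn-1, 43, 42.2 and 40.1 CPM with mtLys and 46.8, 46.5 and 46.2 CPM with control. Levels were far higher in the mtAsn-2 libraries than in all others, and the mtAsn-1 and mtLys libraries lay just below the control libraries. OAS3 rose with mtAsn-2 (0.78 ± 0.050, adjusted p = 3.07e-13), which was 1.72-fold, and was also higher than with mtAsn-1 (0.86 ± 0.051, adjusted p = 5.84e-14) and with mtLys (0.93 ± 0.050, adjusted p = 4.56e-15). Its fall with mtLys was small (-0.15 ± 0.052, adjusted p = 0.0163) and was lost without mtLys replicate 3 (adjusted p = 0.0864).

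OAS1 had 5.2, 5.19 and 4.87 CPM in the mtAsn-2 libraries, 2.17, 3.6 and 2.62 CPM with mtAsn-1, 2.78, 3.75 and 3.39 CPM with mtLys and 3.03, 3.54 and 3.37 CPM with control. All mtAsn-2 libraries lay above all others. OAS1 rose with mtAsn-2 (0.62 ± 0.14, adjusted p = 0.000464) and was higher than with mtAsn-1 (0.88 ± 0.15, adjusted p = 1.55e-05) and with mtLys (0.63 ± 0.13, adjusted p = 0.00026). OASL, a relative without synthetase activity that enhances RIG-I signalling, behaved otherwise. OASL was at 76.2, 69.6 and 67.3 CPM in the mtAsn-2 libraries, 38.4, 37.4 and 49.9 CPM with mtAsn-1, 57.3, 55.1 and 62.2 CPM with mtLys and 61.8, 70.9 and 65.1 CPM with control. The mtAsn-1 libraries were the lowest of the 4 groups. OASL fell with mtAsn-1 (-0.64 ± 0.098, adjusted p = 9.81e-05) and missed the threshold with mtAsn-2 (0.11 ± 0.091, adjusted p = 0.36), though it passed as higher with no filter (adjusted p = 0.0389). It was also lower with mtAsn-1 than with mtLys (-0.46 ± 0.097, adjusted p = 0.0157), a call lost without mtAsn-1 replicate 1 (adjusted p = 0.0538) or 2 (0.0666) or mtLys replicate 3 (0.0566). OAS2 fell with mtAsn-1 (-0.40 ± 0.065, adjusted p = 7.6e-06). Its fall with mtAsn-2 (-0.15 ± 0.061, adjusted p = 0.0352) was lost by DESeq2 (adjusted p = 0.0685), with no filter (0.0887) and in the compared groups alone (0.067). The same fall was lost without control replicate 2 (0.164) or 3 (0.161), and without mtAsn-2 replicate 1 (0.0521) or 3 (0.174).

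IFIH1, the cytosolic sensor of long double-stranded RNA, was among the genes that fell with mtAsn-2. IFIH1 had 11.3, 11.4 and 11.1 CPM in the mtAsn-2 libraries, 13.5, 16.4 and 16 CPM with mtAsn-1, 17.2, 15.7 and 18 CPM with mtLys and 17.4, 18.2 and 18.5 CPM with control. Every mtAsn-2 library lay below every other library. IFIH1 fell with mtAsn-2 (-0.68 ± 0.077, adjusted p = 2.09e-08), and was lower with mtAsn-2 than with mtAsn-1 (-0.44 ± 0.080, adjusted p = 4.28e-05) and with mtLys (-0.59 ± 0.075, adjusted p = 2.04e-07). DHX58 (LGP2), its partner protein, instead rose with mtAsn-2 (0.48 ± 0.070, adjusted p = 1.51e-06). EIF2AK2 encodes PKR, the kinase that stops translation on double-stranded RNA, and it shares 35 bases with GPATCH11 on the opposite strand. EIF2AK2 was at 56.6, 58.4 and 53.3 CPM in the mtAsn-2 libraries, 70.4, 61.3 and 66.6 CPM with mtAsn-1, 67.7, 70.7 and 68.7 CPM with mtLys and 85.3, 88.5 and 89.4 CPM with control. All libraries of the 3 tRNA LNAs lay below all control libraries. EIF2AK2 fell with mtAsn-2 (-0.64 ± 0.049, adjusted p = 1.07e-11), mtAsn-1 (-0.40 ± 0.050, adjusted p = 1.41e-07) and mtLys (-0.34 ± 0.049, adjusted p = 1.19e-06). It was lower with mtAsn-2 than with mtAsn-1 (-0.24 ± 0.051, adjusted p = 0.00029) and than with mtLys (-0.30 ± 0.049, adjusted p = 1.05e-05).

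IFI16, a DNA sensor, differed less. IFI16 stood at 87.8, 89 and 91.2 CPM in the mtAsn-2 libraries, 101, 112 and 105 CPM with mtAsn-1, 102, 97.4 and 105 CPM with mtLys and 88, 92.9 and 97 CPM with control. The mtAsn-1 and mtLys libraries lay above all control libraries, while the mtAsn-2 and control libraries overlapped. IFI16 rose with mtAsn-1 (0.20 ± 0.047, adjusted p = 0.00108), and its rise with mtLys (0.14 ± 0.046, adjusted p = 0.0173) no longer passed without control replicate 1 (adjusted p = 0.114) or mtLys replicate 3 (0.0909). IFI16 was lower with mtAsn-2 than with mtAsn-1 (-0.25 ± 0.047, adjusted p = 7.61e-05). ADAR, which edits double-stranded RNA, rose slightly with mtAsn-2 (0.23 ± 0.037, adjusted p = 6.42e-06). Both genes overlap an annotated gene on the opposite strand, PYDC5 with 0 reads in all for IFI16 and CHRNB2 with 48 for ADAR. Opposite-strand overlaps were present for 13 of the interferon-stimulated genes, and no strand-specific counting is stated.

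Of the 7 RNA-binding effector and GTPase genes, 3 rose and 1 fell with mtAsn-2 and 1 rose and 2 fell with mtLys. With mtAsn-1, 4 fell and 0 rose by edgeR, with 0 higher at an unadjusted p under 0.05 and by DESeq2. The IFIT proteins bind foreign RNA, and their 4 genes lie side by side on chromosome 10. IFIT2 stood at 93.8, 92.4 and 85.8 CPM in the mtAsn-2 libraries, 52.2, 52.6 and 68.1 CPM with mtAsn-1, 78.3, 81.4 and 87.2 CPM with mtLys and 97.9, 109 and 103 CPM with control. The mtAsn-1 libraries were the lowest, and control libraries were the highest. IFIT2 fell with mtAsn-1 (-0.83 ± 0.086, adjusted p = 1.59e-06) and with mtLys (-0.33 ± 0.082, adjusted p = 0.00377), and missed the threshold with mtAsn-2 (-0.19 ± 0.081, adjusted p = 0.066). IFIT2 did pass as lower with mtAsn-2 by DESeq2 (adjusted p = 0.0378), with no filter (0.00446), with a replicate block (0.045) and in the compared groups alone (0.00575). It also passed without mtAsn-1 replicate 1 (adjusted p = 0.037) or 3 (0.0023). Direct comparison put it lower with mtAsn-1 than with mtLys (-0.50 ± 0.086, adjusted p = 0.00383). IFIT3, its neighbour, had another order. IFIT3 had 128, 123 and 117 CPM in the mtAsn-2 libraries, 78.3, 76.9 and 97.7 CPM with mtAsn-1, 108, 108 and 120 CPM with mtLys and 86.6, 101 and 100 CPM with control. The mtAsn-2 libraries lay above all mtAsn-1 and control libraries and overlapped the mtLys libraries. IFIT3 rose with mtAsn-2 against control (0.35 ± 0.088, adjusted p = 0.0047). With mtLys against control it was not called. It passed there as higher with no filter (adjusted p = 1.16e-05) or a stricter one (0.0301), with a replicate block (0.0169) and in the compared groups alone (0.0027). The same held without mtAsn-1 replicate 1 (adjusted p = 0.0384), 2 (0.0454) or 3 (0.00128). It was lower with mtAsn-1 than with mtLys (-0.40 ± 0.089, adjusted p = 0.0229), a call that was lost in the compared groups alone (adjusted p = 0.0511), without mtAsn-1 replicate 1 (0.0665) or 2 (0.0976), and without mtLys replicate 2 (0.0641) or 3 (0.0671). The fall of IFIT1 with mtAsn-1 (-0.23 ± 0.078, adjusted p = 0.0199) did not hold without control replicate 2 (adjusted p = 0.093) or 3 (0.0795) or without mtAsn-1 replicate 1 (0.0888) or 2 (0.0976). The fall of IFIT5 with mtAsn-1 (-0.20 ± 0.062, adjusted p = 0.00843) did not hold without mtAsn-1 replicate 1 (adjusted p = 0.0631). With mtLys, IFIT5 was lower than with control (-0.15 ± 0.059, adjusted p = 0.0386). That call was lost by DESeq2 (adjusted p = 0.0629), with no filter (0.107) and with a replicate block (0.0536). It was also lost without control replicate 1 (0.0764), 2 (0.0783) or 3 (0.0759), and without mtLys replicate 1 (0.165) or 2 (0.102).

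ISG20, an exonuclease that degrades viral RNA, was among the largest rises with mtAsn-2. ISG20 stood at 24.6, 26.6 and 26.5 CPM in the mtAsn-2 libraries, 14.3, 15.4 and 14.1 CPM with mtAsn-1, 19.9, 19.5 and 21.3 CPM with mtLys and 15.4, 17.2 and 14.2 CPM with control. The mtAsn-2 libraries lay above all others, and the mtLys libraries lay between them and the rest. ISG20 rose with mtAsn-2 (0.72 ± 0.070, adjusted p = 1.27e-09) and mtLys (0.36 ± 0.072, adjusted p = 0.00014), and its difference with mtAsn-1 did not pass (-0.11 ± 0.079, adjusted p = 0.257). It was lower with mtAsn-1 than with mtLys (-0.47 ± 0.075, adjusted p = 0.000246), and higher with mtAsn-2 than with mtAsn-1 (0.83 ± 0.073, adjusted p = 1.93e-10). MX1, a GTPase that traps viral nucleocapsids, was low. MX1 was at 6.08, 7.15 and 6 CPM in the mtAsn-2 libraries, 4.19, 5.43 and 4.67 CPM with mtAsn-1, 5.12, 4.31 and 4.51 CPM with mtLys and 5.45, 5.26 and 4.86 CPM with control. All mtAsn-2 libraries lay above all others, which overlapped each other. MX1 was higher with mtAsn-2 than with mtLys (0.46 ± 0.11, adjusted p = 0.000976). Its rise with mtAsn-2 against control (0.29 ± 0.11, adjusted p = 0.0299) was lost by DESeq2 (adjusted p = 0.0528), without control replicate 2 (0.0644) or 3 (0.0922), and without mtAsn-2 replicate 2 (0.155). MX2, its relative that blocks nuclear import of retroviruses, was at 0.406 CPM per kb in control and fell with mtAsn-2 (-0.86 ± 0.21, adjusted p = 0.00131) and mtAsn-1 (-0.94 ± 0.24, adjusted p = 0.00179).

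Of the 5 genes of ISG15 conjugation, 3 rose and 1 fell with mtAsn-2, 2 rose and 2 fell with mtAsn-1, and 2 rose and 2 fell with mtLys. ISG15 stood at 127, 123 and 122 CPM in the mtAsn-2 libraries, 78.1, 84.8 and 85.6 CPM with mtAsn-1, 104, 105 and 111 CPM with mtLys and 172, 196 and 159 CPM with control. All control libraries lay above all others, and the mtAsn-1 libraries were the lowest. ISG15 fell with mtAsn-2 (-0.51 ± 0.055, adjusted p = 4.29e-08), mtAsn-1 (-1.09 ± 0.058, adjusted p = 3.57e-13) and mtLys (-0.72 ± 0.056, adjusted p = 1.77e-10). Between the asparagine LNAs it was higher with mtAsn-2 (0.58 ± 0.058, adjusted p = 1.29e-08). UBE2L6, the conjugating enzyme that carries ISG15, went the other way. UBE2L6 stood at 69.3, 71.4 and 71.7 CPM in the mtAsn-2 libraries, 59.7, 62.6 and 59.5 CPM with mtAsn-1, 62.6, 61.5 and 64.4 CPM with mtLys and 53.3, 45.9 and 52.8 CPM with control. All libraries of the 3 tRNA LNAs lay above all control libraries. UBE2L6 rose with mtAsn-2 (0.49 ± 0.051, adjusted p = 5.31e-09), mtAsn-1 (0.26 ± 0.054, adjusted p = 0.000183) and mtLys (0.31 ± 0.052, adjusted p = 1.14e-05). HERC5, the main human ISG15 ligase, fell with mtAsn-1 (-0.46 ± 0.053, adjusted p = 5.02e-08) and mtLys (-0.20 ± 0.051, adjusted p = 0.00143) and missed the threshold with mtAsn-2 (0.08 ± 0.050, adjusted p = 0.205).

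HERC6 is a related ligase gene beside HERC5 on chromosome 4. HERC6 had 20.9, 20.9 and 19.3 CPM in the mtAsn-2 libraries, 16.8, 14.3 and 19.7 CPM with mtAsn-1, 20.9, 20.4 and 22.6 CPM with mtLys and 11.7, 14.7 and 14.8 CPM with control. The mtAsn-2 and mtLys libraries lay above all control libraries, and the mtAsn-1 and control libraries overlapped. HERC6 rose with mtAsn-2 (0.58 ± 0.094, adjusted p = 1.69e-05) and mtLys (0.64 ± 0.094, adjusted p = 5.43e-06). Its rise with mtAsn-1 (0.33 ± 0.10, adjusted p = 0.00897) no longer passed without control replicate 1 (adjusted p = 0.0716) or mtAsn-1 replicate 3 (0.131). USP18 removes ISG15 and also blocks the type I interferon receptor. USP18 had 4.38, 4.75 and 3.84 CPM in the mtAsn-2 libraries, 2.32, 1.49 and 2.8 CPM with mtAsn-1, 2.37, 2.7 and 2.31 CPM with mtLys and 1.61, 2.83 and 2.08 CPM with control. All mtAsn-2 libraries lay above all others, at a low level. USP18 rose with mtAsn-2 (0.97 ± 0.18, adjusted p = 4.61e-05), which was 1.96-fold, but missed the threshold with mtAsn-1 (0.05 ± 0.21, adjusted p = 0.874) and mtLys (0.16 ± 0.19, adjusted p = 0.52). It was also higher with mtAsn-2 than with mtAsn-1 (0.92 ± 0.18, adjusted p = 0.000145) and with mtLys (0.81 ± 0.17, adjusted p = 0.000207).

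**Figure D4:**
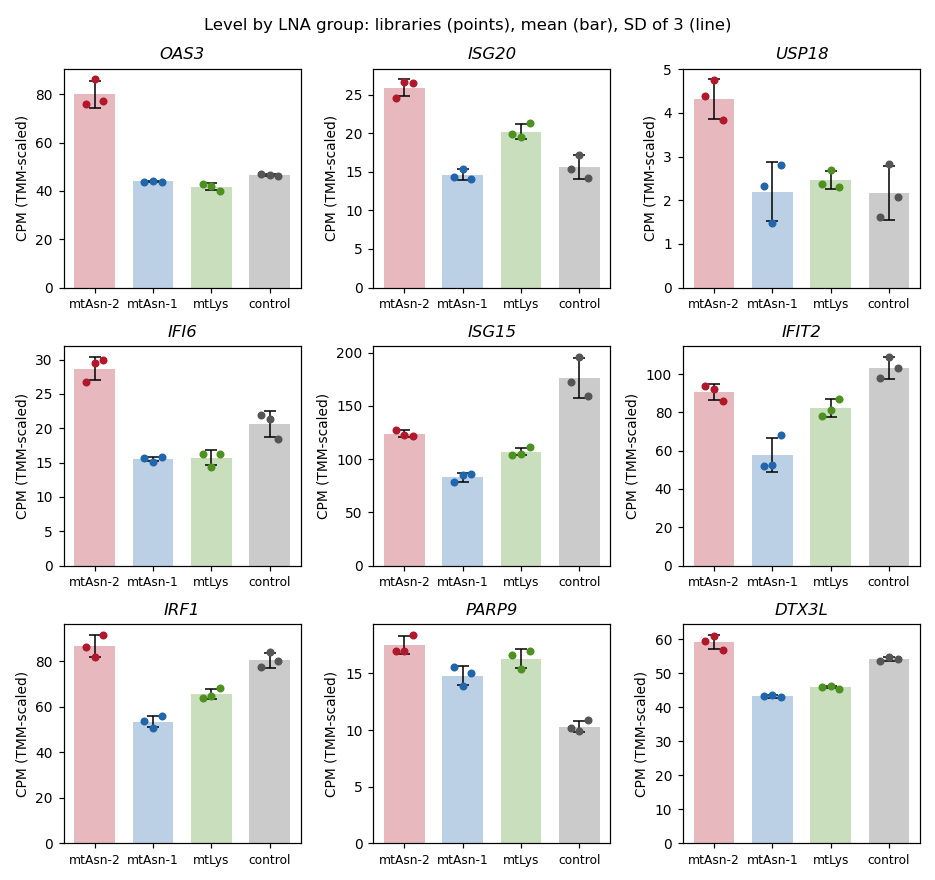
CPM of 9 interferon-stimulated genes by LNA group, with libraries as points, the mean as a bar and the SD of 3 libraries as a line. OAS3, ISG20, USP18 and IFI6 were highest with mtAsn-2, ISG15 and IFIT2 were highest with control, and PARP9 was lowest with control while DTX3L was not.

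Of 6 membrane effector genes, 2 rose and 3 fell with mtAsn-2, 1 rose and 2 fell with mtAsn-1, and 1 rose and 2 fell with mtLys. The IFITM proteins block fusion of viruses with the cell. The 3 IFITM genes are related and lie close together on chromosome 11, and reads may be split between them where their sequences match. IFITM1 had 11.9, 15.3 and 14.8 CPM in the mtAsn-2 libraries, 11.4, 13.1 and 10.8 CPM with mtAsn-1, 13.6, 11.8 and 13.9 CPM with mtLys and 28.3, 23.2 and 24.5 CPM with control. All control libraries lay far above all others. IFITM1 fell with mtAsn-2 (-0.86 ± 0.092, adjusted p = 3.36e-08), mtAsn-1 (-1.12 ± 0.10, adjusted p = 2.51e-09) and mtLys (-0.96 ± 0.093, adjusted p = 9.74e-09). IFITM3 fell by less, with mtAsn-2 (-0.30 ± 0.041, adjusted p = 6.69e-07), mtAsn-1 (-0.35 ± 0.042, adjusted p = 7.62e-08) and mtLys (-0.22 ± 0.041, adjusted p = 7.6e-05). IFITM2 had 59.8, 57.3 and 66.9 CPM in the mtAsn-2 libraries, 70.8, 70.6 and 63.5 CPM with mtAsn-1, 71.3, 68.4 and 74.3 CPM with mtLys and 77.3, 70.8 and 74.1 CPM with control. All mtLys and control libraries lay above the mtAsn-2 libraries. IFITM2 fell with mtAsn-2 (-0.27 ± 0.056, adjusted p = 0.000185) and was lower than with mtLys (-0.22 ± 0.055, adjusted p = 0.00181). BST2 (tetherin), which holds budding virus at the cell surface, rose with mtAsn-2 (0.24 ± 0.061, adjusted p = 0.00234) and mtAsn-1 (0.23 ± 0.063, adjusted p = 0.00497).

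RSAD2 encodes viperin, which makes a chain-terminating nucleotide. It had 2 to 55 reads in a library and shares 903 bases with CMPK2 on the opposite strand. RSAD2 was at 1.51, 1 and 1.28 CPM in the mtAsn-2 libraries, 0.197, 0.171 and 0.216 CPM with mtAsn-1, 0.377, 0.498 and 0.745 CPM with mtLys and 0.187, 0.26 and 0.107 CPM with control. The mtAsn-2 libraries lay above all others, and the mtLys libraries lay above the control libraries. The fitted log2 fold changes of RSAD2 were 2.67 ± 0.33 with mtAsn-2, 1.39 ± 0.40 with mtLys and 0.01 ± 0.54 with mtAsn-1, each against control. RSAD2 passed the filter on low counts only through the mtAsn-2 and mtLys libraries, where it was high. No p-value is therefore given for it, though its calls are included in the counts of genes called. At these counts the fold is imprecise, and the level with mtAsn-2 was 0.34 CPM per kb. PLSCR1, a phospholipid scramblase gene, had log2 fold changes of 0.01, -0.02 and 0.02 with mtAsn-2, mtAsn-1 and mtLys against control, and did not pass in any comparison.

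Of the 6 genes of ADP-ribosyl and ubiquitin transfer and nuclear bodies, 3 rose and 1 fell with mtAsn-2, 2 rose and 3 fell with mtAsn-1, and 2 rose and 3 fell with mtLys. PARP9 and DTX3L encode a mono-ADP-ribosyltransferase and a ubiquitin ligase that work as a complex. The genes lie head to head on chromosome 3 and overlap by 447 bases on opposite strands. The same ISRE core, at chr3:122564332-122564341, began 41 bases before a PARP9 start. On the DTX3L strand it began 6 bases before the DTX3L start, which the core spans. PARP9 was at 17, 17 and 18.4 CPM in the mtAsn-2 libraries, 15.6, 13.9 and 15 CPM with mtAsn-1, 16.6, 15.4 and 17 CPM with mtLys and 10.2, 9.88 and 10.9 CPM with control. All libraries of the 3 tRNA LNAs lay above all control libraries. PARP9 rose with mtAsn-2 (0.77 ± 0.075, adjusted p = 1.48e-09), mtAsn-1 (0.53 ± 0.081, adjusted p = 3.08e-06) and mtLys (0.67 ± 0.076, adjusted p = 3.12e-08).

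DTX3L stood at 59.6, 61 and 56.9 CPM in the mtAsn-2 libraries, 43.4, 43.7 and 42.9 CPM with mtAsn-1, 46, 46.4 and 45.5 CPM with mtLys and 53.6, 54.9 and 54.1 CPM with control. The mtAsn-1 and mtLys libraries lay below all control libraries, and the mtAsn-2 libraries lay above them. DTX3L fell with mtAsn-1 (-0.32 ± 0.048, adjusted p = 2.37e-06) and mtLys (-0.24 ± 0.046, adjusted p = 9.93e-05). Its rise with mtAsn-2 (0.13 ± 0.045, adjusted p = 0.0215) no longer passed without control replicate 1 (adjusted p = 0.0655) or mtAsn-2 replicate 2 (0.0805). DTX3L was also higher with mtAsn-2 than with mtAsn-1 (0.45 ± 0.047, adjusted p = 5.66e-09). PARP14, a further ADP-ribosyltransferase gene on chromosome 3, was lower. PARP14 was at 71.8, 76.8 and 74.5 CPM in the mtAsn-2 libraries, 60.7, 65.3 and 64.7 CPM with mtAsn-1, 62.3, 63.2 and 62.7 CPM with mtLys and 86, 91.9 and 85.5 CPM with control. All control libraries lay above all others. PARP14 fell with mtAsn-2 (-0.24 ± 0.045, adjusted p = 5.24e-05), mtAsn-1 (-0.47 ± 0.047, adjusted p = 3.27e-09) and mtLys (-0.49 ± 0.046, adjusted p = 8.38e-10).

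SP100, a scaffold of nuclear bodies that restrict DNA viruses, was higher with the tRNA LNAs. SP100 was at 56.4, 55.5 and 54.2 CPM in the mtAsn-2 libraries, 63.5, 69.4 and 62.9 CPM with mtAsn-1, 66.7, 60.8 and 64.8 CPM with mtLys and 47.3, 50.3 and 52.2 CPM with control. All control libraries lay below all others. SP100 rose with mtAsn-1 (0.39 ± 0.053, adjusted p = 7.05e-07) and mtLys (0.36 ± 0.052, adjusted p = 1.23e-06), and was lower with mtAsn-2 than with mtAsn-1 (-0.23 ± 0.051, adjusted p = 0.000426). Its rise with mtAsn-2 (0.15 ± 0.052, adjusted p = 0.0161) no longer passed without control replicate 1 (adjusted p = 0.106). TRIM21, a cytosolic antibody receptor and ubiquitin ligase, fell with mtAsn-1 (-0.34 ± 0.063, adjusted p = 4.92e-05) and mtLys (-0.25 ± 0.059, adjusted p = 0.000953), while TRIM22 was not called in any of the 6 comparisons. With mtAsn-2 against mtLys, TRIM22 (0.21 ± 0.088, adjusted p = 0.0519) did pass as higher with RLE scaling factors (adjusted p = 0.0435), with no filter (0.0413) or a stricter one (0.043), in the compared groups alone (0.0387), and in 5 of the fits that left out 1 library of any group (0.0349 to 0.0484).

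Of the 9 tested genes with other functions, 5 rose and 1 fell with mtAsn-2, 1 rose and 4 fell with mtAsn-1, and 2 rose and 2 fell with mtLys. IFI6, an endoplasmic reticulum protein that restricts flaviviruses, was called in opposite directions by the LNAs. IFI6 had 26.8, 29.5 and 30 CPM in the mtAsn-2 libraries, 15.6, 15.1 and 15.8 CPM with mtAsn-1, 16.3, 14.4 and 16.3 CPM with mtLys and 21.9, 21.3 and 18.4 CPM with control. All mtAsn-2 libraries lay above all control libraries, and all mtAsn-1 and mtLys libraries lay below them. IFI6 rose with mtAsn-2 (0.47 ± 0.069, adjusted p = 1.51e-06) and fell with mtAsn-1 (-0.41 ± 0.078, adjusted p = 6.48e-05) and mtLys (-0.40 ± 0.073, adjusted p = 4.31e-05). IFI6 was higher with mtAsn-2 than with mtAsn-1 (0.89 ± 0.073, adjusted p = 6.2e-11) and than with mtLys (0.88 ± 0.069, adjusted p = 2.03e-11). SAMD9L, which restrains translation and cell growth, also went in opposite directions. SAMD9L was at 36.5, 37.3 and 35.1 CPM in the mtAsn-2 libraries, 26.3, 24.8 and 27.4 CPM with mtAsn-1, 31.4, 32 and 34.5 CPM with mtLys and 30.2, 31.5 and 32.4 CPM with control. The mtAsn-2 libraries lay above all others, the mtAsn-1 libraries lay below all others, and the mtLys and control libraries overlapped. SAMD9L rose with mtAsn-2 (0.21 ± 0.056, adjusted p = 0.00207) and fell with mtAsn-1 (-0.25 ± 0.060, adjusted p = 0.000945). SAMD9, its paralogue, fell with mtAsn-1 (-0.45 ± 0.056, adjusted p = 1.32e-07) and missed the threshold with mtAsn-2 (-0.07 ± 0.053, adjusted p = 0.292).

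IFI35 modulates RIG-I signalling. IFI35 had 51.9, 55.1 and 53.7 CPM in the mtAsn-2 libraries, 38, 37.9 and 37.2 CPM with mtAsn-1, 44.2, 41.8 and 43.5 CPM with mtLys and 30.3, 33.2 and 34.4 CPM with control. All control libraries lay below all others, and the mtAsn-2 libraries were the highest. IFI35 rose with mtAsn-2 (0.72 ± 0.052, adjusted p = 3.88e-12), mtAsn-1 (0.21 ± 0.056, adjusted p = 0.00265) and mtLys (0.41 ± 0.053, adjusted p = 3.36e-07). IFI44L is often used as an interferon marker. IFI44L stood at 5.67, 7.44 and 7.49 CPM in the mtAsn-2 libraries, 4.78, 5.72 and 5.14 CPM with mtAsn-1, 5.2, 5.68 and 6.52 CPM with mtLys and 4.44, 3.8 and 5.29 CPM with control. The mtAsn-2 libraries lay above all control libraries, and the mtLys and control libraries overlapped. IFI44L rose with mtAsn-2 (0.63 ± 0.13, adjusted p = 0.000185). Its rise with mtLys (0.38 ± 0.13, adjusted p = 0.0201) no longer passed without control replicate 2 (adjusted p = 0.168) or mtLys replicate 3 (0.1). XAF1, a pro-apoptotic antagonist of XIAP, rose with mtAsn-2 (0.57 ± 0.066, adjusted p = 3.13e-08). IFI44, the neighbour and paralogue of IFI44L, was not called against control with mtAsn-2 (0.13 ± 0.057, adjusted p = 0.0509). It passed as higher with RLE scaling factors (adjusted p = 0.0392), with no filter (0.0101) or a stricter one (0.0434), and in the compared groups alone (0.029). It also passed without control replicate 2 (adjusted p = 0.0304), mtAsn-1 replicate 2 (0.0431), mtAsn-2 replicate 3 (0.0196), or mtLys replicate 2 (0.029) or 3 (0.0455).

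EPSTI1, a gene induced by interferon and by contact with stroma in breast cancer, was lower with both asparagine LNAs. EPSTI1 had 5.51, 6.37 and 6.73 CPM in the mtAsn-2 libraries, 5.67, 5.2 and 6.75 CPM with mtAsn-1, 7.76, 7.62 and 8.75 CPM with mtLys and 7.54, 7.73 and 8.5 CPM with control. The mtAsn-2 and mtAsn-1 libraries lay below all mtLys and control libraries. EPSTI1 fell with mtAsn-1 (-0.40 ± 0.11, adjusted p = 0.0044), and its fall with mtAsn-2 (-0.35 ± 0.10, adjusted p = 0.00671) was lost without mtAsn-2 replicate 1 (adjusted p = 0.0624). EPSTI1 was lower with mtAsn-2 than with mtLys (-0.37 ± 0.10, adjusted p = 0.00316). The like difference of mtAsn-1 from mtLys (-0.43 ± 0.11, adjusted p = 0.0197) was lost without mtAsn-1 replicate 1 (adjusted p = 0.0858) or 2 (0.0997) or mtLys replicate 3 (0.109). LGALS3BP stood at 822 ± 22 CPM with mtAsn-2 and 852 ± 28.4 CPM with control (SD, n = 3 each), and none of the LNAs passed for it against control.

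**Figure D5:**
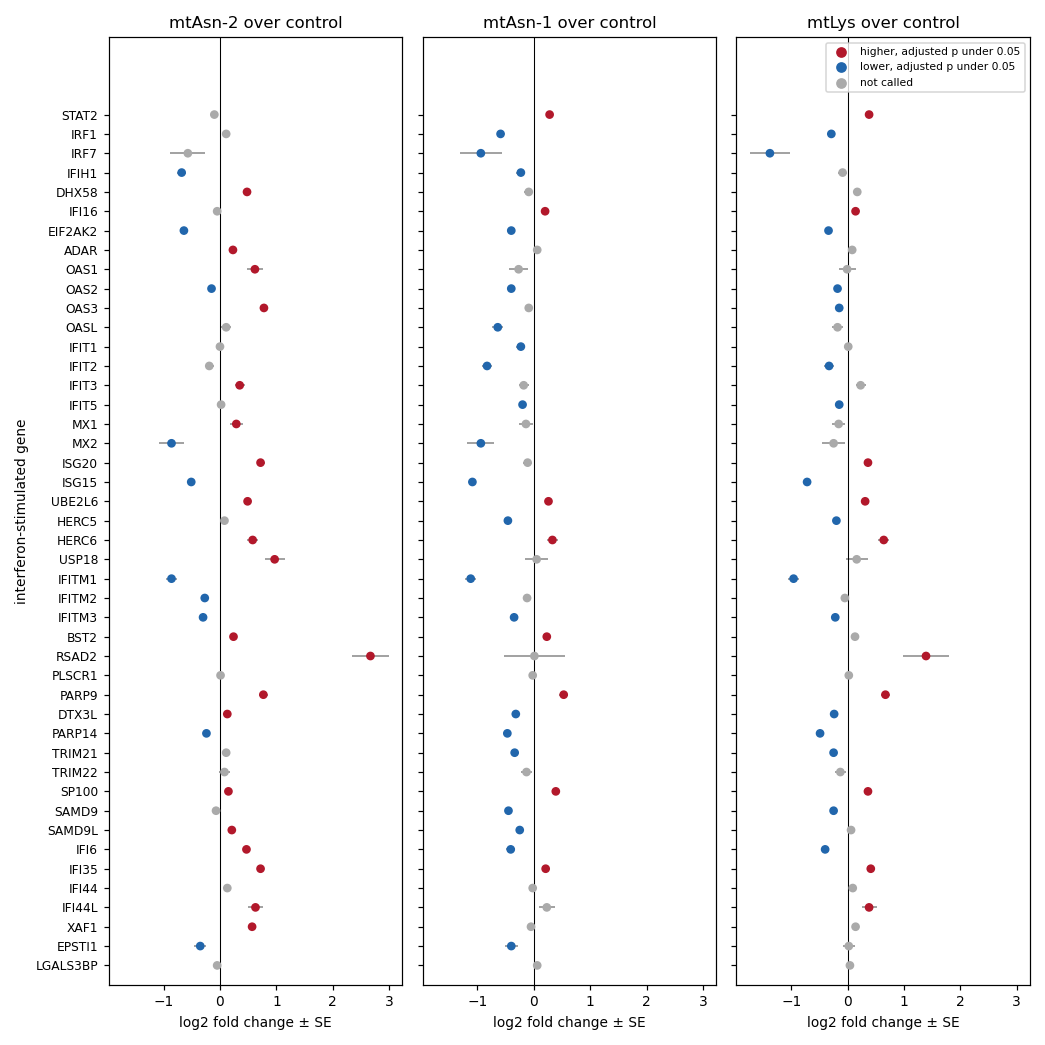
Log2 fold change against control (horizontal axis, with its SE as a line) of each of the 45 tested interferon-stimulated genes for mtAsn-2, mtAsn-1 and mtLys, coloured by call. With mtAsn-2, 20 points are red (higher) and 10 blue (lower), with mtAsn-1 8 and 21, and with mtLys 10 and 16.

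Genes with an ISRE core and those without one were set side by side. Of the 25 tested genes with an ISRE core, 10 were higher and 7 lower with mtAsn-2 than with control, 2 and 14 with mtAsn-1, and 4 and 12 with mtLys. Of the 11 tested genes whose matched windows held none, 8 were higher and 3 were not called with mtAsn-2, with higher and lower counts of 6 and 2 with mtAsn-1 and 6 and 1 with mtLys. Median log2 fold changes with and without the core were 0.08 and 0.23 with mtAsn-2, -0.23 and 0.20 with mtAsn-1, and -0.15 and 0.14 with mtLys. In the direct comparison of mtAsn-2 with mtAsn-1 the medians were 0.26 and 0.24. Among all genes, 24.1% were higher and 27.0% lower with mtAsn-2, 24.3% and 24.2% with mtAsn-1, and 24.6% and 23.9% with mtLys, each against control. No test was run on this split.

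The interferon pathway around these genes was read from lists of related genes. Among all genes, 24.1% were higher and 27.0% lower with mtAsn-2, 24.3% and 24.2% with mtAsn-1, and 24.6% and 23.9% with mtLys, each against control. No list was tested as a set. Of 22 interferon ligand genes, 18 had 0 reads in every library, IFNB1 among them. IFNL1, a type III interferon gene, had at most 6 reads in a library and 28 in all, and none of the 22 could be tested. Of 14 tested receptor and JAK-STAT genes, 4 rose and 5 fell with mtAsn-2, 2 and 8 with mtAsn-1, and 2 and 7 with mtLys. The type III interferon receptor gene IFNLR1 was at 11 ± 0.553 CPM with mtAsn-2, 6.76 ± 0.267 with mtAsn-1, 6.61 ± 0.366 with mtLys and 11.8 ± 1.41 with control (SD, n = 3 each). It fell with mtAsn-1 (-0.82 ± 0.098, adjusted p = 7.52e-08) and mtLys (-0.85 ± 0.092, adjusted p = 1.12e-08) and missed the threshold with mtAsn-2 (-0.11 ± 0.086, adjusted p = 0.28). Its partner chain gene IL10RB rose with mtAsn-2 (0.62 ± 0.063, adjusted p = 3.1e-09), mtAsn-1 (0.46 ± 0.067, adjusted p = 1.84e-06) and mtLys (0.41 ± 0.064, adjusted p = 6.25e-06). Of 20 feedback inhibitor genes, 4 rose and 8 fell with mtAsn-2, 3 and 8 with mtAsn-1, and 4 and 7 with mtLys. SOCS3, which blocks JAK kinases, fell with mtAsn-2 (-0.54 ± 0.043, adjusted p = 2.95e-11), mtAsn-1 (-0.48 ± 0.044, adjusted p = 5.13e-10) and mtLys (-0.38 ± 0.043, adjusted p = 2.66e-08).

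Of 28 tested nucleic acid sensor and signalling genes outside the 48, 11 rose and 7 fell with mtAsn-2, 5 and 12 with mtAsn-1, and 5 and 12 with mtLys. For this and the next lists, the shares of all genes were 24.1% and 27.0%, 24.3% and 24.2%, and 24.6% and 23.9%. DDX58 (RIG-I), the sensor of RNA 5′ triphosphates, rose with mtAsn-2 (0.51 ± 0.056, adjusted p = 9.96e-09), mtAsn-1 (0.34 ± 0.058, adjusted p = 1.47e-05) and mtLys (0.64 ± 0.056, adjusted p = 1.59e-10). TLR3, the endosomal receptor of double-stranded RNA, was at 22.2 ± 1.15 CPM with mtAsn-2 and 13 ± 0.0247 with control (SD, n = 3 each). It rose with mtAsn-2 (0.77 ± 0.073, adjusted p = 8.13e-10) and was higher than with mtAsn-1 (0.97 ± 0.077, adjusted p = 2.24e-11). Of 41 further interferon-stimulated genes tested, 22 rose and 4 fell with mtAsn-2, 7 and 11 with mtAsn-1, and 12 and 9 with mtLys, with medians of 0.18, -0.05 and 0.06. Among them the antiviral helicase gene DDX60 rose with mtAsn-2 (1.16 ± 0.085, adjusted p = 4.07e-09), mtAsn-1 (0.30 ± 0.092, adjusted p = 0.0124) and mtLys (0.85 ± 0.086, adjusted p = 3.41e-07). PARP10 rose with mtAsn-2 (0.15 ± 0.046, adjusted p = 0.00883) and fell with mtAsn-1 (-0.48 ± 0.049, adjusted p = 4.82e-09) and mtLys (-0.37 ± 0.047, adjusted p = 2.22e-07). Between mtAsn-2 and mtAsn-1, 26 of these 41 genes were higher and 5 lower with mtAsn-2, against 21.9% and 24.6% of all genes. Of 15 tested genes typical of the interferon-gamma response, 10 rose and 3 fell with mtAsn-2, 6 and 5 with mtAsn-1, and 6 and 3 with mtLys. The immunoproteasome subunit gene PSMB10 rose with mtAsn-2 (0.69 ± 0.060, adjusted p = 1.15e-10), mtAsn-1 (0.43 ± 0.063, adjusted p = 1.66e-06) and mtLys (0.56 ± 0.060, adjusted p = 9.87e-09). Reads of 7 of the 23 genes on that list may be shared with entries on alternate loci, so its counts are uncertain. On the same list, TAPBP passed the filter on low counts mainly through the control libraries, where it was high. GBP5 on that list and CXCL11 among the further interferon-stimulated genes passed mainly through the mtAsn-2 libraries, where they were high. Any calls of these genes are included in the counts above.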

How the data were processed

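Whole reads per gene, deposited by the authors as raw counts for 12 RNA-seq libraries (MDA-MB-231, 4 LNA groups of 3), were the starting point. Per the labels' protocols, total RNA was prepared with a Norgen kit and libraries with the TruSeq RNA Library Kit v2. The submitters' processing notes name FastQC, STAR 2.6.0a, featureCounts, DESeq2 and hg38; no source used here states the settings for strand and multiply mapping reads, so reads of near-identical or overlapping genes may be shared. Of 52897 lines, 38 were broken and were left out.

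Genes were filtered by edgeR's filterByExpr (minimum count 10, minimum total 15), which left 16051. RSAD2 and the main entry of IRF7 passed only through the groups where they were high. On the lists of related genes, TAPBP, for example, passed mainly through the control libraries, and GBP5 and CXCL11 mainly through the mtAsn-2 libraries. Any calls of these genes are included in the counts of genes called. TMM factors (0.974 to 1.05), 1 robust quasi-likelihood fit of all 12 libraries in edgeR 4.0.16 (R 4.3.3) and Benjamini-Hochberg adjustment over all genes tested gave log2 fold changes, SE back-calculated from the test statistic, and calls at an adjusted p under 0.05. Library totals of 17978825 to 37708993 reads set the counting precision. The fitting steps were tested on simulated data. Replicate numbers did not pair the libraries: 0 of 18 same-numbered pairs correlated above 0.1 in their deviations from group means. Alternatives were DESeq2 1.42.0, other scaling, other filters, a replicate block, the compared groups alone and leaving out each library.

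The 48 genes and the lists around them were chosen with earlier results of these data known. Genes given with per-library values were those with a mean log2 CPM of at least 1 among the 5 largest calls in each direction of a comparison, or called in opposite directions against control. RSAD2 lay below that level and was added for the size of its fold change, and others are named for their role, after their values were seen. Motifs were searched on both strands of RefSeq windows of GRCh38.p14.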

Additional observations from a re-analysis of the deposited data

How the results depend on the processing

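Of the 12 counts of genes called per comparison and direction, 11 stayed within 1.5 times the reported count in every alternative run. The exception was the number of genes lower with mtAsn-1 than with mtLys, 13 as reported, which ranged from 6 to 15 when 1 library was left out and from 12 to 16 under the other settings. It was 6 without mtAsn-1 replicate 1, mtAsn-1 replicate 2 or mtLys replicate 3; fewer libraries entered those fits, and the cause was not tested further. With 1 library left out, the genes higher and lower numbered 18 to 21 and 8 to 11 for mtAsn-2 over control, 7 to 8 and 17 to 21 for mtAsn-1 over control, 8 to 13 and 14 to 17 for mtLys over control, 26 to 31 and 5 to 7 for mtAsn-2 over mtAsn-1, and 20 to 24 and 7 to 10 for mtAsn-2 over mtLys. With the replicate number as a block, which the numbers do not support as a pairing (2 of 12 libraries correlated best with their own number), these counts were 20 and 11, 8 and 20, 11 and 15, 30 and 7, and 22 and 8, and 0 and 12 for mtAsn-1 over mtLys. For the 65 fold changes followed individually, 18 of 780 values with a library left out and 1 of 385 under other settings lost the call, and none changed sign. These 65 were picked from the same data as the largest calls or for opposite calls against control, which favours stable calls. Weaker calls such as those of IRF7, OAS2 and IFIT5 are not among them, so these rates do not describe the other calls. Depth limited IRF7, RSAD2 and MX2, whose few reads make their folds imprecise, and CMPK2, which had too few reads to be tested.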
